A study of Mus musculus with 11 samples.

Results

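Narrow CpG-rich H3K9me3-only peaks were examined for DNA methylation in mouse E14 embryonic stem cells. A member was a peak of the unified H3K9me3 list on chromosomes 1 to 19 that was under 5000 bp wide, overlapped no unified H3K4me1 or H3K27me3 peak, and held 20 or more CpGs per kb. The rule was met by 1348 of the 21460 unified H3K9me3 peaks, of which 20576 lay on those chromosomes. It used peak position, width and CpG density and no methylation value. H3K9me3, trimethylation of lysine 9 of histone H3, is the mark of constitutive heterochromatin and of silenced transposons, imprinted alleles and germline genes, and it often lies on methylated DNA. CpG-dense DNA is otherwise mostly found at promoters known as CpG islands, which are usually free of methylation and of this mark.

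The assay, CUT&Tag-BS, used an antibody to bring a protein A-Tn5 transposase to chromatin with a given mark, and the released fragments were bisulfite converted so that the same reads report methylation. All samples came from E14 cells (129/Ola background) kept in serum with leukemia inhibitory factor. H3K4me1 and H3K9me3 were each profiled from 250000 cells and sequenced as run 1 (35 bp reads) and run 2 (75 bp reads), H3K27me3 from 4000, 20000, 100000 and 250000 cells, and each mark once more without bisulfite. Nothing in the labels names separate cultures, and the 2 runs of a mark shared the state of single CpGs more often than calls within run 2 did (88.6% of 2242 member CpGs called once in each run, against 82.4% of 9905 with 2 calls in run 2), so the runs were taken as repeat sequencing of 1 library. Each mark and cell number thus has 1 library and no biological replicate. Intervals are 95% Wilson intervals that cover counting error only, and every p compares libraries, not marks. Both treat each call as independent. A read can give calls at several CpGs, so intervals can be too narrow and p too small.

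The libraries held from 378056 to 37177077 CpG calls, with 2012835 in H3K9me3 run 1 and 6355757 in run 2. Of 16 pluripotency genes checked, 14 carried an H3K4me1 peak, the exceptions being Klf4 and Sox2. All 407620 CG positions of 32619 RefSeq promoter windows (GRCm38.p6, 250 bases before to 50 after each gene start) were rows of the deposited CpG table, which places the deposited positions on that build. Members on chromosome 18 (51 of 1348) had no promoter window to compare with and were left out wherever promoters are described, which leaves 1297.

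The peaks that carried a gene start were few, but they showed the full range of states seen in these peaks. The 250 bases before the start are printed for 6 of them, in the direction of transcription, with every CG in capitals. They come from the RefSeq promoter table (GRCm38.p6), since no genome was used here, and were chosen after their values were seen. Dazl and Dpep3, both known for expression in the germline, had mostly methylated starts. Slc39a10, which encodes a zinc transporter, was unmethylated throughout its peak. Selenoi (a phospholipid-synthesis enzyme) and Nol7 (a nucleolar protein) had an unmethylated start inside a methylated peak, and Smarca5, the ATPase of ISWI chromatin remodelers, lay in the member with the highest CpG density.

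Dazl, chr17:50293621-50293870, minus strand: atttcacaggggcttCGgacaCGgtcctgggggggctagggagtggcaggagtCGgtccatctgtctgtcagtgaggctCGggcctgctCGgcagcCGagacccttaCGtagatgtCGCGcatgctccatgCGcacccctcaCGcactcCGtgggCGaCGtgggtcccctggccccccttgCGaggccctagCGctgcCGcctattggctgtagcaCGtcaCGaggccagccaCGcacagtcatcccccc
Dpep3, chr8:105979420-105979669, minus strand: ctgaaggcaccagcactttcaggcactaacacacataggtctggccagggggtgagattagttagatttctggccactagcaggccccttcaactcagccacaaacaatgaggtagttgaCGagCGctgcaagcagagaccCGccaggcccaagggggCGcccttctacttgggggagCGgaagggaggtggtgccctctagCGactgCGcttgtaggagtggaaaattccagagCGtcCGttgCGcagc
Slc39a10, chr1:46853619-46853868, minus strand: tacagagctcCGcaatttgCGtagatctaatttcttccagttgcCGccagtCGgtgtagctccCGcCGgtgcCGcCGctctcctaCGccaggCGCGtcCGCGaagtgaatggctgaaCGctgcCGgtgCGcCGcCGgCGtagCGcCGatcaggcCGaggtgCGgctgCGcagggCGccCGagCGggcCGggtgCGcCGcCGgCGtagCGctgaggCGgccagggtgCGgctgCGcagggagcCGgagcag
Selenoi, chr5:30232331-30232580, plus strand: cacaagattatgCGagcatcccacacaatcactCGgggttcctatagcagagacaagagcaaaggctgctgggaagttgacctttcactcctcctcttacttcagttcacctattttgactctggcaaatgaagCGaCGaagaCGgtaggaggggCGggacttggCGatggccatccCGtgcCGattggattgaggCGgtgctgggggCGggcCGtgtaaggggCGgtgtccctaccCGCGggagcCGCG
Nol7, chr13:43398126-43398375, plus strand: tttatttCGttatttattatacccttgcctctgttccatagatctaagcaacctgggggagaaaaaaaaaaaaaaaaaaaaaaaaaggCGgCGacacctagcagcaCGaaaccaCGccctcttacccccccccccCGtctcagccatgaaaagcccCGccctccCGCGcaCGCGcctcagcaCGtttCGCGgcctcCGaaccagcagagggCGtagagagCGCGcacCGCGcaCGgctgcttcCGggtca
Smarca5, chr8:80739460-80739709, minus strand: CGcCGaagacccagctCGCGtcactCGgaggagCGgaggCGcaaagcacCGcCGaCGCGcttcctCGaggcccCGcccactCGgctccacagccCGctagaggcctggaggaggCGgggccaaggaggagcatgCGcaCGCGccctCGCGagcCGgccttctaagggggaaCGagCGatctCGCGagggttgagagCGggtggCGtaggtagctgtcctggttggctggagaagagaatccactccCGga

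The printed stretches held 20 CGs at Dazl, 10 at Dpep3, 37 at Slc39a10, 17 at Selenoi, 22 at Nol7 and 29 at Smarca5. In H3K9me3 run 2, 18 of 28 calls in the Dazl stretch were methylated (64.3%), as were 49 of 54 in the Dpep3 stretch (90.7%). In the Slc39a10 stretch 0 of 162 calls were methylated, in the Selenoi stretch 0 of 89, and in the Nol7 stretch 1 of 127. The Smarca5 stretch lay between these, with 40 of 103 calls methylated (38.8%). In run 1 the Slc39a10, Selenoi and Nol7 stretches were again the lowest, with 12 of 19 calls methylated at Dazl, 23 of 26 at Dpep3, 0 of 96 at Slc39a10, 1 of 39 at Selenoi, 1 of 72 at Nol7 and 6 of 21 at Smarca5. In other marks the Smarca5 stretch had no methylated call, with 0 of 11 in H3K4me1 run 2 and 0 of 23 in H3K27me3 from 250000 cells. The methylated stretches kept some: 25 of 37 such H3K27me3 calls at Dazl and 5 of 5 H3K4me1 run 2 calls at Dpep3.

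Short letter strings were counted on both strands of the 300-base windows of the 65 genes whose windows touched a member (69 windows). TGCCGC, the core bound by the zinc finger protein ZFP57, was in 18.8% of them, against 11.7% of all 32619 windows. TCCCGC, the core of E2F6 sites at germline genes, was in 24.6% against 20.1%. CACGTG, an E-box, was in 5.80% against 7.20%. The windows in members also held more CGs (a median of 14, against 7 over all windows), and the part of that in the first difference was not tested.

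Members were small. The median width was 1269.5 bp (range 1001 to 4983), and 486 of 1348 were at the lowest width in the list, 1001 bp. They held from 21 to 193 CpGs, with a median of 34, and the density ran from 20 to 131.9 CpGs per kb with a median of 23.9. At the edge of the rule, 228 members had 20 to 21 CpGs per kb, and 292 other narrow H3K9me3-only peaks had 19 to 20. Every autosome held members, from 30 on chromosome 19 to 139 on chromosome 1.

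The DNA under these peaks was mostly methylated. Pooled over members, the methylation level (methylated calls over all calls) was 79.6% over 44700 calls of H3K9me3 run 1 (interval 79.2 to 79.9%) and 80.7% over 173082 calls of run 2 (80.6 to 80.9%). Run 2 called 85.9% of the 55115 CpGs in members. Of the 1348 members, 1343 had at least 20 run 2 calls, and their single levels had a median of 89.1% with quartiles of 77.5% and 93.4%. Most of them, 973 (72.4%), had 80% or more, 261 had 50 to 80%, 81 had 20 to 50% and 28 had under 20%. Run 1, with 20 calls in 831 members, gave a median of 87.9%. Over those 831 peaks the runs correlated with r = 0.941 as a description of shared fragments, and their median absolute difference was 3.87 points.

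Single CpGs followed the same split. Among 13222 member CpGs with at least 5 run 2 calls, 71.9% were methylated in 80% or more of calls, 6.23% in under 20% and 21.9% in between. Of 1212 members with at least 10 calls in each run, 1 was called different between the runs by the rule used below (Fisher's exact test, two-sided, Benjamini-Hochberg adjusted p under 0.05 over all H3K9me3 peaks tested, and 20 points or more). The same call was made in 0.0278% of all peaks tested, always with run 2 higher. This member was Hsbp1, which encodes a heat shock factor binding protein, with 5 of 70 calls methylated in run 1 and 63 of 185 in run 2. At CpGs called in both runs 0 of 1201 members were called by Fisher's exact test with adjustment, and 39 had an unadjusted p under 0.05.

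**Figure D1:**
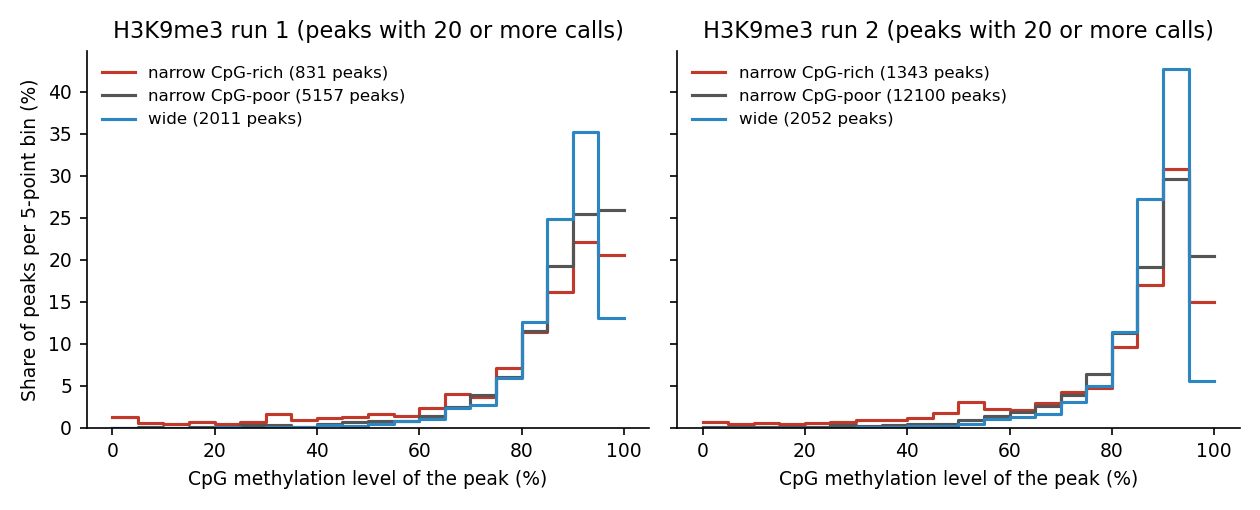
Share of peaks (y axis, %) by methylation level in bins of 5 points (x axis, %), in H3K9me3 run 1 (left) and run 2 (right), for the narrow CpG-rich peaks, the narrow CpG-poor H3K9me3-only peaks and the wide H3K9me3-only peaks with 20 or more calls. All sets pile up above 80%, and the narrow CpG-rich peaks have the longest tail below 50%: 109 of 1343 in run 2, against 294 of 12100 narrow CpG-poor peaks.

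Most members resembled other H3K9me3-only peaks, and the difference lay in a tail of low levels. In run 2 the median was 89.8% in the 2052 wide peaks, 90.0% in the narrow CpG-poor peaks within genes (4913) and 89.9% in those between genes (10695), close to the 89.1% of members. The share of peaks under 50% was 8.12% of members (interval 6.77 to 9.70%, 1343 peaks) and 2.43% of narrow CpG-poor peaks (2.17 to 2.72%, 12100 peaks). The tail lowered the pooled level as well, to 80.7% against 86.9% and 86.5% in the CpG-poor classes and 88.3% in the wide peaks. With 1 library these differences have no replicate check. In the 1568 H3K9me3 peaks that overlapped another mark the median was 61.3%, well below that of members.

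Within the members, the level fell with CpG density. In run 2 the pooled level was 85.4% in the 794 members with 20 to 25 CpGs per kb, 81.4% in the 311 with 25 to 30, 73.6% in the 183 with 30 to 40 and 52.7% in the 60 with 40 or more. Run 1 gave 84.8%, 79.7%, 73.0% and 47.2% in the same order. The medians fell far less over the first 3 ranges (89.7%, 89.2% and 86.3%) than in the densest (51.1%), where 16 of the 60 had under 20%. The 8 members nearest the density limit had run 2 levels from 82.8 to 95.7%.

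The densest 5 members were Smarca5, 4930526I15Rik, Dazl, Rgcc and Zfp996. Smarca5 (131.9 CpGs per kb) had 9 of 54 calls methylated in run 1 and 55 of 242 in run 2. Rgcc, a cell cycle regulator, had 30 of 76 and 66 of 181, while Zfp996, a zinc finger gene, had 0 of 91 and 4 of 114. Dazl, the RNA-binding protein of germ cells, was the one highly methylated member of the 5, with 45 of 53 and 98 of 122.

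**Figure D2:**
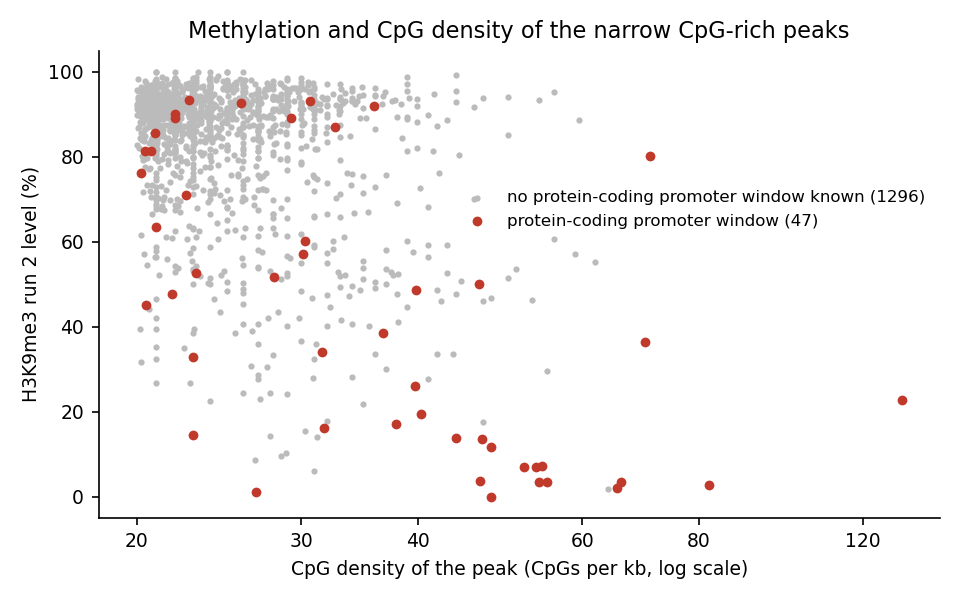
Each point is a member with at least 20 H3K9me3 run 2 calls, with CpG density on the x axis (CpGs per kb, log scale) and methylation level on the y axis (%). Members with a protein-coding promoter window (47) (the grey points include chromosome 18, which has no windows) make up most of the dense, unmethylated corner: 14 of 18 with 40 or more CpGs per kb have under 20%.

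Members at promoters were lower. Of 1297 members, 57 (4.39%) overlapped a promoter window, 47 of them that of a protein-coding gene, 412 lay in a gene without one and 828 outside genes. The median distance to the nearest start was 48686 bp, and 1075 (82.9%) were over 10000 bp away. The 57 had a pooled run 2 level of 46.7% (interval 45.8 to 47.7%) and a median of 47.7%, against 83.0% and 90.2% in genes without a promoter window and 83.2% and 88.9% outside genes. The 47 protein-coding members had 42.5% in run 2 and 38.6% in run 1. In run 2, 18 of the 47 had under 20%, 17 had 20 to 80% and 12 had 80% or more, and among the 1250 others on the same chromosomes the counts were 9, 311 and 925.

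The difference was also seen within ranges of density. Among members with 40 or more CpGs per kb, the 18 at protein-coding promoters had a pooled level of 17.6% over 3033 calls, and the other 39 a median of 59.3% and a pooled level of 66.5% over 6250 calls. This range has no upper limit, and the densest members named above all had a protein-coding promoter window, so density differs within it. From 30 to 40 CpGs per kb, the 11 at promoters had a pooled level of 48.8% and the other 165 one of 74.8%. Among members with 20 to 25 CpGs per kb, the 14 at promoters had a median of 73.6% and the other 752 one of 89.9%. A promoter window was in 3.31% of narrow CpG-poor peaks within genes, 0.126% of those between genes and 5.04% of wide peaks, so it was not more common in members than in every other class.

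Most of the unmethylated members were gene starts. Over the 1297 members off chromosome 18, a run 2 level under 20% was found in 20 members with a promoter window, in 1 within a gene and no window, and in 6 outside genes. The 8 lowest, taken among members with at least 20 run 2 and 10 run 1 calls, had levels from 0 to 3.51% in run 2 and from 0 to 7.69% in run 1. All 8 overlapped a promoter window: Zscan25, Zfp932 and Zfp996 (zinc finger genes), Slc39a10, Auh (an RNA-binding mitochondrial enzyme), Nt5dc1 (a nucleotidase-like gene), 4930526I15Rik and Gm26901. Slc39a10 had 4 of 172 calls methylated in run 1 and 8 of 406 in run 2, and its peak was in all 3 H3K9me3 lists. Zscan25 had 0 of 49 and 0 of 73, where a count of 0 allows up to 4.11% in run 2, and its peak was in the list without bisulfite only. Zfp932 had 0 of 20 calls methylated in run 1 and 0.990% in run 2, and Auh 2 of 69 and 6 of 171. The 8 were low in the other marks too, from 0 to 7.84% in H3K4me1 run 2 and from 0 to 4.76% in H3K27me3 from 250000 cells. At Slc39a10 1 of 45 H3K4me1 run 2 calls and 1 of 21 H3K27me3 calls from 250000 cells were methylated, and at Zscan25 0 of 75 and 0 of 73.

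Some other promoter members were methylated around an unmethylated start. Where the window and the rest of the peak each had 10 run 2 calls (41 of 47 protein-coding members), the median was 6.38% in the window and 58.4% in the rest. Taken within each member, the rest was above the window by a median of 10 points. The rest was higher in 33 of 41 and higher by 20 points or more in 14, which was also the count in run 1 (of 34) and with 20 calls in each part (of 36). At Nol7 the window had 0.741% of 135 calls methylated and the rest of its 4983-bp peak 89.7% of 233. At Eif2b5, a subunit of the translation factor eIF2B, the values were 0% of 28 and 84.1% of 151, at Selenoi 0% of 136 and 78.0% of 268, at Hsbp1 0% of 89 and 65.6% of 96, and at Psmg4, a proteasome assembly chaperone, 4.24% of 118 and 64.3% of 493. Smarca5 was the one member the other way by 20 points, with 36.9% of 122 calls in the window and 8.33% of 120 in the rest. Hsbp1 was the member called different between the runs above, with a lower level over its whole peak in run 1. Eif2b5, Selenoi and Hsbp1 were named after their values were seen.

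Aligned on the annotated start, the 47 members had their lowest level just before it. In run 2 the pooled level was 78.8% from 1000 to 750 bp before the start (245 calls), 67.8% and 40.1% in the next steps of 250 bp, 15.0% in the last 250 bp before it (interval 13.6 to 16.6%, 2300 calls), and 21.9%, 41.6%, 71.6% and 85.3% in the steps after it. Run 1 followed the same course. H3K4me1 run 2 calls in the same peaks reached 4.12% just before the start (437 calls) and 2.96% just after it (506 calls), below the H3K9me3 values on both sides. Only parts of each window inside a member were counted, and members differ in which steps they cover.

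**Figure D3:**
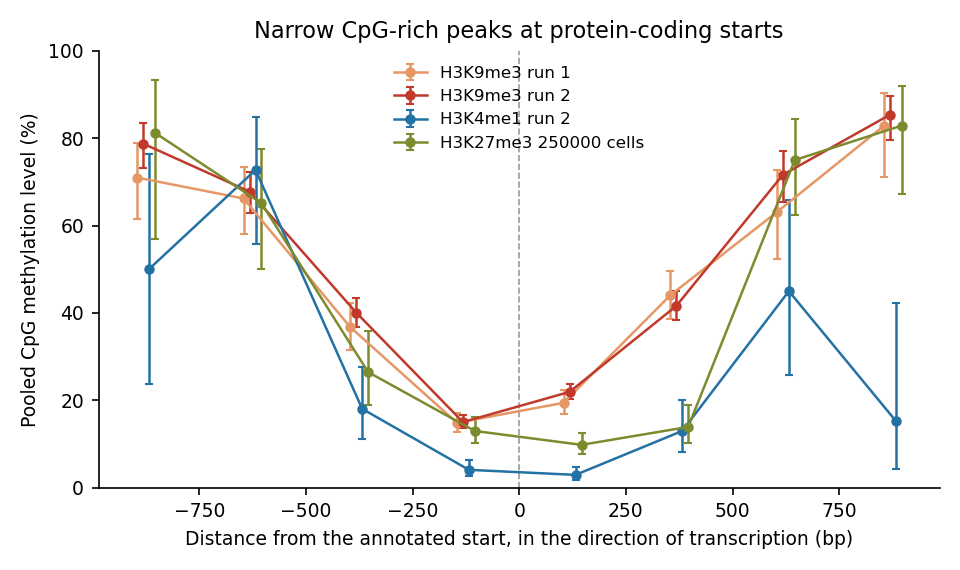
Pooled methylation level (y axis, %) of CpGs inside the 47 members with a protein-coding promoter window, in steps of 250 bp from the annotated start (x axis, bp, transcription to the right); bars are 95% Wilson intervals. In run 2 the H3K9me3 level falls from 78.8% at the left edge to 15.0% just before the start and returns to 85.3% at the right edge.

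Promoter members with a high level over the whole peak formed the third kind. Of the 12 protein-coding members with 80% or more, Dpep3, a dipeptidase of the testis, had 95 of 99 calls methylated in run 1 and 227 of 245 in run 2. Fsip2, which encodes a sperm tail protein, had 92.1% of 38 run 2 calls in its window, Fscn2, a photoreceptor fascin, 90.0% of 20, and Lhcgr, the receptor of luteinizing hormone, 77.4% of 31. Dazl had 72.2% of 36 calls in its window and 83.7% of 86 in the rest. Fsip2, Fscn2 and Lhcgr were named after their values were seen.

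Gene lists gave small numbers of members. Of 67 germline genes, 3 had a member within 1000 bp (Dazl, Dpep3 and Tdrd9, a helicase of the piRNA pathway), which is 0.223% of members against 0.107% of all H3K9me3 peaks on chromosomes 1 to 19, and all 3 had 80% or more. Tdrd9 had 28 of 29 calls methylated in run 1 and 136 of 150 in run 2. Of 51 genes of imprinted loci, Snrpn and the overlapping Snurf shared 1 member. Zinc finger genes had 8 members (0.593%, against 0.612% of all peaks), spread from 0 to 94.9% with a median of 25.1%: 4 had under 20% and 3 had 80% or more. The highest of these was Zfp13 with 138 of 140 and 391 of 412 calls methylated, and Zfp869 had 72 of 219 and 189 of 573.

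Of the clustered gene families, the Pcdha protocadherin cluster had 3 members and the Vmn1r, Vmn2r, Defb and Mup genes 1 each. The Pcdha share was 0.223% of members against 0.0486% of all H3K9me3 peaks on these chromosomes. A single member is 0.0742% of members, where the Vmn2r genes had 0.471% of all peaks, Vmn1r 0.0875%, Mup 0.0729% and Defb 0.0292%. The 3 Pcdha members, all among the 8 with most run 2 calls (570 to 855), had run 2 levels of 76.1%, 89.1% and 93.2%. No member lay within 1000 bp of the 1420 Olfr, 22 Pcdhb, 22 Pcdhg or 56 Krtap genes, or of the 27 listed genes of the H3K9me3 and DNA methylation machinery. Over all 20576 peaks, 66 (0.321%) lay that near to Olfr genes, 7 to the machinery genes, 1 to Pcdhg, 1 to Krtap and 0 to Pcdhb.

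Many members, those at promoters included, held runs of CpG spacing that recur in the genome. Equal spacing was taken as a sign of shared sequence, and the sequences themselves were not compared. A word was a run of 8 consecutive distances between CpGs, read from either strand, and needs 9 CpGs. Of 1348 members, 65.7% held a word found at least 2 times in the genome's CpG table, 47.7% one found at least 10 times and 21.2% one found at least 100 times. The same shares were 17.1%, 9.51% and 4.76% of narrow CpG-poor peaks between genes that held a word, 39.8%, 25.6% and 14.1% of wide peaks, and 5.32%, 1.21% and 0.714% of H3K4me1 peaks with 20 or more CpGs per kb. More CpGs in a peak give more words, so the comparison of classes depends in part on density, which the H3K4me1 peaks share. The name of each repeated sequence is not given, because no genome or repeat annotation was used here.

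Joining members that shared a word gave 656 members (48.7%) in 30 groups, 8 of them with 5 or more members. Family 1 held 447 members on 19 chromosomes, family 2 held 75 on 17 and family 3 held 33 on 16. No single word marked a family, since members were joined in chains. The commonest word of family 1 was in 32 of its 447 members. It had CpG distances of 3, 3, 18, 8, 2, 16, 8 and 23 bp and occurred 627 times in the genome. That of family 2 (15 of 75 members) had 3, 7, 13, 4, 21, 12, 4 and 15 bp and occurred 1915 times. That of family 3 (9 of 33 members) had 2, 5, 18, 9, 45, 9, 3 and 23 bp and occurred 28 times. With words of 6 distances families 1, 2 and 3 fell into 1 group of 820, and with 10 distances family 1 split into groups of 117, 86 and 59, so the families are defined only at the word length used.

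The families differed in methylation. Family 1 had a run 2 median of 91.5% (446 members with 20 calls) with quartiles of 85.6% and 94.5%. Family 2 had a median of 57.1% with quartiles of 45.4% and 74.3%, and a pooled level of 58.7% (interval 57.7 to 59.8%, 8083 calls). Family 3 had a median of 75.4%, and the 692 members in no group one of 87.9%. Run 1 gave 90.5% for family 1 and 58.8% for family 2 (24 members with 20 calls). None of the 3 families had a member under 20%, and the 28 such members were all in no group. Reads from near-identical copies can be placed at the wrong copy or lost, and run 2 with its longer reads held 5.47 times the calls of run 1 in family 2, 4.49 times in family 1 and 3.34 times in members of no group. The part of this in the family levels was not tested.

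**Figure D4:**
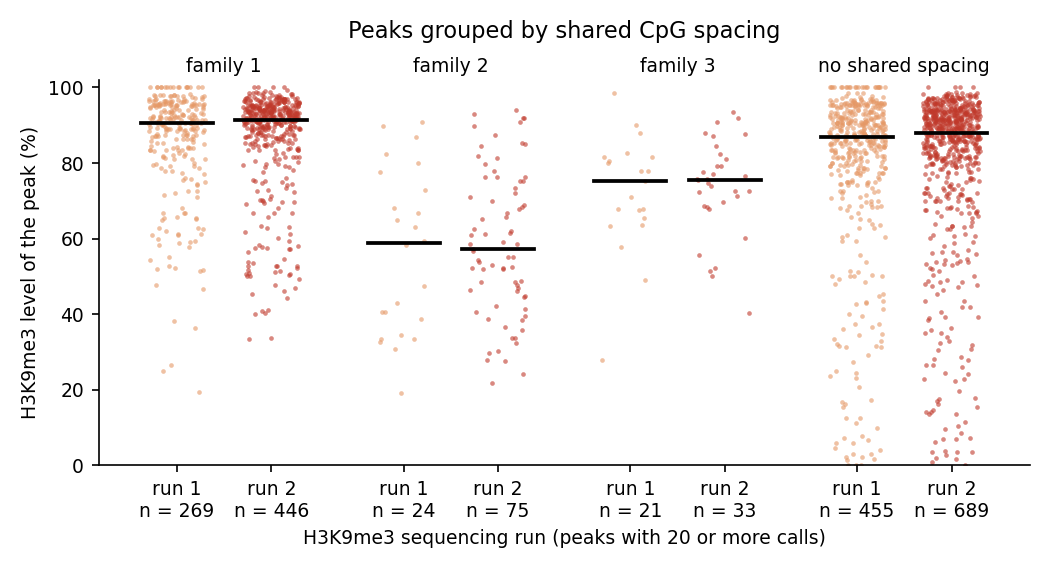
Methylation level in H3K9me3 run 1 and run 2 (y axis, %) of members with 20 or more calls, grouped by shared CpG spacing; points are members, spread sideways at random within a column, and black bars are medians. Family 2 sits lower than the rest in both runs, with medians of 58.8% and 57.1%.

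Family 2 was also lower than family 1 in libraries of the other marks and outside peaks. Its members had 35.8% in H3K27me3 from 250000 cells and 33.3% in H3K4me1 run 2, against 66.1% and 42.6% in family 1. Over all genome copies of the family 2 words, 96.1% of CpGs lay outside every peak and 3.07% in an H3K9me3 peak. The H3K9me3 run 2 level was 46.3% outside peaks (28019 calls) and 55.8% in H3K9me3 peaks (6780 calls). For family 1 words the values were 82.4% (111644 calls) and 88.5% (70629 calls). Family 2 was thus the lower of the 2 outside the peaks as well. Outside peaks the other marks differed less. Family 2 words had 29.6% in H3K27me3 from 250000 cells and 29.7% in H3K4me1 run 2, against 44.1% and 33.0% for family 1 words.

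Calls of the other marks inside members were few, since the rule left out peaks of those marks, and a smaller share of them was methylated. The pooled level was 34.4% in H3K4me1 run 1 (2125 calls) and 38.2% in run 2 (interval 36.8 to 39.6%, 4753 calls). In H3K27me3 it was 52.0% with 4000 cells (344 calls), 52.1% with 20000 (2115 calls), 55.3% with 100000 (8415 calls) and 57.4% with 250000 (56.5 to 58.3%, 11785 calls). These pooled values do not come from the same peaks: H3K4me1 run 2 had a call in 407 of 1348 members and H3K27me3 from 250000 cells in 902.

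Where both libraries had 10 calls, H3K9me3 run 2 was compared with H3K4me1 run 2 in 141 members. H3K9me3 was called higher in 53 (37.6%), while 38.6% of all 2229 H3K9me3 peaks tested were called in that direction, so the share in members was close to the background. It was called lower in 1 member, against 0.135% of all tested. The difference was above 0 in 116 of 141, with a median of 19.8 points (quartiles 3.79 and 34.1), and the median over all peaks tested was 19.2. At CpGs called in both libraries, Fisher's exact test with adjustment called 30 of 135 members higher and 0 lower, and 44 had an unadjusted p under 0.05. Over all peaks tested at such CpGs, 415 of 2119 were called higher and 1 lower. The 141 members had a median H3K9me3 level of 56.2%, below that of members in general.

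Snrpn was called higher in H3K9me3 against both other marks. The peak at chr7:60003212-60005195 covers the Snrpn and Snurf start region, an imprinting control region at which one parental copy is methylated. In H3K9me3 39 of 44 calls were methylated in run 1 and 141 of 158 in run 2 (89.2%). In H3K4me1 0 of 11 and 1 of 39 were methylated, and in H3K27me3 1 of 10 with 100000 cells and 0 of 15 with 250000. The H3K9me3 values lay far above those of both other marks, by 86.7 points for H3K4me1 (Fisher's exact test, adjusted p = 1.6e-24) and 89.2 points for H3K27me3 (adjusted p = 2.4e-11). At shared CpGs the differences were 88.3 and 80 points.

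Other members with large differences from H3K4me1 lay at genes of several kinds. At Dazl 1 of 6 and 3 of 21 H3K4me1 calls were methylated, 66.0 points below H3K9me3 run 2 (Fisher's exact test, adjusted p = 7.0e-08) and 78.7 points at shared CpGs. The Dazl peak was found without bisulfite only. At AI854703 89 of 93 and 186 of 200 H3K9me3 calls were methylated, and 8 of 30 and 16 of 77 H3K4me1 calls, a difference of 72.2 points that was 72.5 at shared CpGs. Gm9008 differed by 97.4 points, Rprl3 by 66.2, a member without a gene on chromosome 16 by 66.2, one on chromosome 19 by 65.4, Atp9a (a phospholipid-transporting ATPase) by 51.7 and Kcng2 (a potassium channel subunit) by 50.5. Nol7 differed by 52.9 points over all its CpGs but by -1.70 at shared CpGs, and Psmg4 by 40.6 and 21.9. The 1 member lower in H3K9me3, on chromosome 16 without a gene, had 98 of 238 H3K9me3 calls methylated and 11 of 13 H3K4me1 calls, a difference of -43.4 points that was not called at shared CpGs (-36.6).

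Against H3K27me3 from 250000 cells, 356 members had 10 calls in both libraries. H3K9me3 was called higher in 40 (11.2%; 6.81% of all 2378 peaks tested) and lower in 4 (0.21% of all tested). The median difference was 3.56 points (quartiles -6.07 and 14.5), against 0.679 over all peaks tested, and it was above 0 in 208 of 356. In other classes 2.54% and 1.73% of narrow CpG-poor peaks between and within genes and 4.45% of wide peaks were called higher. The share was above that of members in H3K9me3 peaks that overlap another mark, at 15.0% (70 of 466). At CpGs called in both libraries 22 of 329 members were higher and 1 lower, against 79 and 1 of all 2172 peaks tested.

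**Figure D5:**
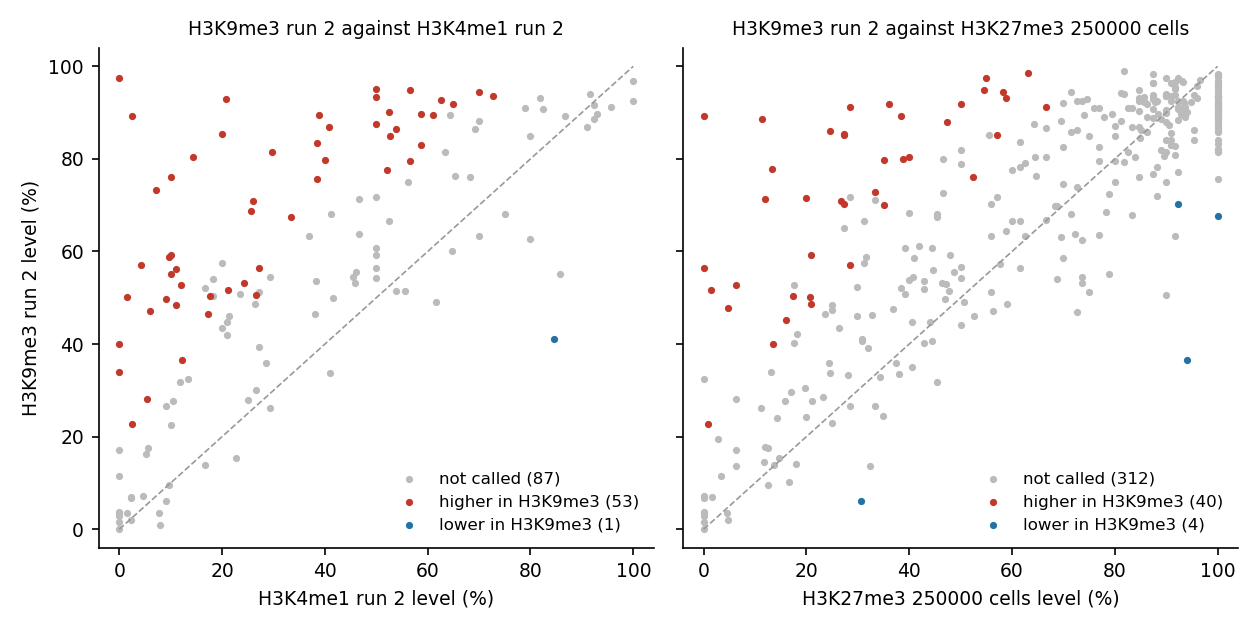
Methylation level in H3K9me3 run 2 (y axis, %) against H3K4me1 run 2 (left x axis, %) and H3K27me3 from 250000 cells (right x axis, %), for members with 10 or more calls in both libraries; the dashed line marks equal levels and colours mark calls. Points lie mainly above the line on the left, with 53 called higher in H3K9me3, and around it on the right, with 40 higher and 4 lower.

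Next to Snrpn, the largest difference from H3K27me3 lay over Nefm, a neurofilament gene, and A230070E04Rik. This 3243-bp member with 193 CpGs had 242 of 256 H3K9me3 calls methylated in run 1 and 517 of 583 in run 2. In H3K27me3 10 of 49 calls were methylated with 100000 cells and 4 of 35 with 250000, while 12 of 13 H3K4me1 run 2 calls were. The difference from H3K27me3 was 77.3 points (Fisher's exact test, adjusted p = 4.3e-21) and 68.1 at shared CpGs. A member on chromosome 2 without a gene had 55 of 64 H3K9me3 run 2 calls methylated and 17 of 69 H3K27me3 calls, a difference of 61.3 points. The other 7 of the 10 largest differed by 55.9 to 64.5 points, 3 of them in family 2.

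The 4 members lower in H3K9me3 than in H3K27me3 were Rgcc, Gm34653, Gm41323 and a member without a gene on chromosome 7. At Rgcc 66 of 181 H3K9me3 run 2 calls and 16 of 17 H3K27me3 calls from 250000 cells were methylated, a difference of -57.7 points, but only 2 of 17 were methylated with 100000 cells, which turns the difference to 24.7. At shared CpGs it was -16.3 and not called. Gm34653 differed by -32.4 points and by -8.54, not called, at shared CpGs. Gm41323 had 80 of 114 H3K9me3 and 60 of 65 H3K27me3 calls methylated (-22.1 points), and with 100000 cells, where 21 of 23 were methylated, the difference was -21.1 and not called. The member on chromosome 7 had 4 of 66 and 11 of 36 (-24.5 points), and at shared CpGs the difference was -25.1 and not called.

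Members were called as peaks unevenly by the H3K9me3 libraries. The run 2 list held 1232 (91.4%), the list without bisulfite 602 (44.7%) and the run 1 list 473 (35.1%). All 3 lists held 338, and run 2 alone held 618 (45.8%). Narrow CpG-poor peaks within genes were in the run 1 list more often (55.1%) and about as often in the run 2 list (93.0%), and 51.2% were in the list without bisulfite. Family 2 members were found in run 1 in 9 of 75 and without bisulfite in 19, and members at protein-coding promoters in 31 and 29 of 47. The unified list is the merge of these 3 lists, so every member is in at least 1 of them and the shares are not independent.

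In H3K9me3 calls the DNA beside members was mostly methylated too. Other unified peaks were left out of the flanks, and the peak rule itself fixes a higher density of H3K9me3 calls inside, so the densities are a description. In run 2 there were 79.8 calls per kb in members, 11.4 in the 500 bp beside them and 2.89 from 5000 to 10000 bp away, with 25.4, 13.2 and 7.50 CpGs per kb. Per CpG the calls fell from 3.14 to 0.867 and 0.385. The methylation level was 80.7% inside, 86.0% within 500 bp, 88.8% from 500 to 1000 bp, 88.6% from 1000 to 2000 bp and 85.4% from 5000 to 10000 bp. H3K27me3 calls from 250000 cells, few as they were, went from 57.4% inside to 67.0% within 500 bp and 77.9% from 5000 to 10000 bp. With the other peaks kept in the flanks the far H3K27me3 values fell below the inside value, to 53.7% from 2000 to 5000 bp and 36.5% from 5000 to 10000 bp, and H3K9me3 run 2 had 5.43 calls per kb from 5000 to 10000 bp.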

How the data were processed

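The authors deposited, per CpG, counts of methylated and of all calls in 8 bisulfite libraries, and peak positions without scores for all 11 samples. Per the submitters' processing notes the tools were cutadapt 1.12, Bismark 0.23.0, Bowtie2 2.3.0, HOMER 4.10.3 and bedtools 2.29.2, with build mm10. How duplicate and multiply aligned reads were treated is not given in the sources used here. Peaks overlapped when they shared 1 bp, and merging the lists of a mark gave its unified list exactly. Calls were summed over the CpGs of a peak. Single peaks are described with 20 or more calls. Tests needed 10 calls in each library: Fisher's exact test, two-sided, adjusted over all H3K9me3 peaks tested (Python 3.11.15, scipy 1.17.1), called at 0.05 and 20 points. The test was also run on simulated calls. These were independent of each other and changed by more than 20 points. They thus cannot show its error for calls that share a read or for smaller changes. The upper limit for a count of 0 is 3 counts of the total. Run numbers are shared by H3K4me1 and H3K9me3 and mark the read length, per the labels. Members, gene lists and tests were chosen with earlier results of these data known. Named members were the 8 lowest and 5 highest in density, the 8 least methylated, the 10 largest called differences per mark (up to 5 in the other direction), the 8 with most calls and those near listed genes (the 4 with most calls in lists over 8); others are said to be named after their values were seen. The E2F6 and E-box strings, the word lengths and the comparison of runs were also added after seeing the data.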

Additional observations from a re-analysis of the deposited data

Results flagged for a closer look

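Chromosome X was outside the rule and gave no members. Its H3K9me3 peaks were among all those tested above, and its copies of words among the genome copies. On it, 107 H3K9me3 peaks met the other criteria. They are listed because their levels lie above the limit that a count of 0 allows. The level was 84.2% in H3K9me3 run 1 (2866 calls) and 84.4% in run 2 (interval 83.7 to 85.1%, 10900 calls). It was 44.8% and 46.3% in the H3K4me1 runs (29 and 95 calls), and in H3K27me3 37.0% with 20000 cells, 46.4% with 100000 and 56.4% with 250000 (92, 295 and 452 calls). The run 2 median was 89.7%, with 1 of 107 under 20%. The difference from the autosomal members was not tested.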

How the results depend on the processing

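The pooled level of 80.7% lay between 77.8% and 84.8% in all alternatives but one: 79.6% without run 2, 80.2% as the mean of runs, 81.3% as the mean of single CpGs, 79.9% at CpGs with 5 or more calls, 84.8% at 15 CpGs per kb, 77.8% under 2 kb width and 82.0% in members with a peak without bisulfite. At 30 CpGs per kb it was 67.6% (243 peaks). Without run 2 the median was 87.9%, and the excess of members under 50% over narrow CpG-poor peaks was 7.28 points against 5.69. The count higher than H3K4me1 (53 of 141) was 19 of 59 without run 2, 31 of 66 with 20 calls and 30 of 135 at shared CpGs. Over all peaks tested the counts were 473 of 1182, 674 of 1365 and 415 of 2119 in the same order. With the replicate block (Cochran-Mantel-Haenszel by run, which pairs runs of equal read length) the member count was 69 of 183. It was 70 of 183 with runs summed without the block. Over all 2771 peaks tested these counts were 1017 and 1064. The count higher than H3K27me3 (40 of 356) was 22 of 329 at shared CpGs. Otherwise it ran from 27 of 147 with 20 calls to 43 of 356 with runs summed. Over all peaks tested these 3 settings gave 79 of 2172, 115 of 762 and 169 of 2382. With 50% of the member covered, 29.2% were in the run 1 list and 39.2% in that without bisulfite. For the named members called by test, 160 of 172 alternative values kept direction and call, 10 lost the call and 2 reversed: Nol7 against H3K4me1 at shared CpGs (-1.70) and Rgcc against H3K27me3 from 100000 cells (24.7). Many of the 172 could not differ, since another call minimum or point limit leaves a member's difference as it is. Settings under which a member had too few calls are not counted, so 160 of 172 is no measure of stability. With other peaks kept in the flanks, an alternative chosen after the data were seen, the H3K27me3 level at 5000 to 10000 bp minus that inside turned from 20.5 to -20.8 points. Leaving out run 1 leaves the main levels and tests as they are, since they use run 2. The set of members was kept the same when a run was left out. It would itself change, since 19 members were in the run 1 list only and 618 in the run 2 list only. The depth of H3K4me1 and H3K27me3 limits tests to 141 and 356 of 1348 members.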
